A study of Caenorhabditis elegans with 2 samples.

Results

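Occupancy of EFL-1 was examined at 7 worm genes of the Sec61 translocon and the translocon-associated protein complex, TRAP, which were chosen as a list and need not be all genes of these complexes: sec-61.A, sec-61.B, sec-61.G, trap-1, trap-2, trap-3 and trap-4, of 19973 nuclear protein-coding genes in all. The data were peak lists from chromatin immunoprecipitation with sequencing (ChIP-seq) of whole hermaphrodites at the young adult stage, from strain YL479, a transgenic line in which EFL-1 carries GFP-FLAG at its C-terminus. There was 1 group of 2 biological replicates. Per the sample descriptions an anti-GFP antibody was used, whereas the antibody field reads efl-1; the control library that the labels mention was not analysed here. Whole animals were used, so the lists do not tell germline from body tissue, and the lists hold no read counts, so depth is unknown.

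The genes were selected on measured values, namely the signal of EFL-1 peaks near their starts, so the counts and signals of these genes are a description and carry no test. A gene was taken as bound if the summit of a peak in the authors' reproducible list (the optimal list after thresholding on the irreproducible discovery rate, IDR) lay within 500 bp of one of its protein-coding starts. For a gene without such a summit, the highest candidate of the pooled list within 500 bp was used. The same sites were then looked up in the candidate lists of replicate 1 and replicate 2.

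Sec61 is the channel through which new proteins cross or enter the membrane of the endoplasmic reticulum (ER). Its alpha subunit forms the pore, and the small beta and gamma subunits each span the membrane beside it. TRAP sits next to the channel under the ribosome and helps certain proteins to be inserted, and its subunits are called alpha, beta, gamma and delta. EFL-1 belongs to the E2F transcription factors of the worm and is known for its part in the DREAM complex and for its work in the germ line and embryo.

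Of the 7 genes, 6 had a reproducible EFL-1 peak, where 8.86% of all nuclear protein-coding genes had one. All 3 Sec61 subunit genes and the TRAP genes trap-1, trap-2 and trap-3 were bound, and trap-4 was not. The 6 genes were served by 5 peaks, because sec-61.B and trap-3 lie head to head and shared 1 peak. The signal was unequal: the peak of sec-61.G was 9.14 times the median reproducible peak, and the other 4 lay between 0.696 and 1.59 times that median.

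The bound sequences are shown first for the strongest site and for the one that serves a gene of each complex, because they differ in content. Coordinates are on WBcel235, the same assembly as ce11, counted from base 1, and sequences are read from its RefSeq copy. Capitals mark matches on either strand to any of the strings searched: the E2F string TTTNNCGC or its shorter form TTNNCGC, with N standing for C or G; the cell cycle gene homology region (CHR) string, TTCGAA or TTTGAA, to which the DREAM subunit LIN-54 binds; the repeat CGCGCG; and TGACGTG, a core of unfolded protein response elements. The sec-61.G peak, chrV:10897244-10897507, is given on the minus strand, the strand of the gene, with its summit at base 128. The peak between sec-61.B and trap-3, chrIV:2389019-2389294, is on the plus strand, the strand of trap-3, with its summit at base 139.
sec-61.G peak: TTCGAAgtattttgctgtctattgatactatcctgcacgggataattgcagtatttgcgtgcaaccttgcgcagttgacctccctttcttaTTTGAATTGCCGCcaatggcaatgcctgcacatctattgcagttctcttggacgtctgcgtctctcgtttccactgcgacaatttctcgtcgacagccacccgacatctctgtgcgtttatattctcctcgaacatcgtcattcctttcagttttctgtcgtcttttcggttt
sec-61.B and trap-3 peak: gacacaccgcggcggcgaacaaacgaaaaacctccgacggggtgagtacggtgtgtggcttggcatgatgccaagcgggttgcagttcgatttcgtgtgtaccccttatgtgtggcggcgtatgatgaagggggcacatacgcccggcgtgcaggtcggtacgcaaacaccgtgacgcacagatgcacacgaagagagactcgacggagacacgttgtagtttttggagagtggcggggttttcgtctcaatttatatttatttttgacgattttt

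In the sec-61.G peak, the CHR string TTTGAA ran straight into the short E2F string TTGCCGC on the same strand, with no base between them, 24 bp from the summit at the nearer end. The 276 bp shared by sec-61.B and trap-3 held none of the strings. For comparison, the trap-2 peak is chrX:768130-768405 on the minus strand, with its summit at base 138. Its only CHR match lay 126 bp from the summit, towards the peak edge that faces the trap-2 start. The unbound trap-4 site, chrIII:11920263-11920538 on the plus strand with its summit at base 139, had a CHR match 3 bp from the summit.
trap-2 peak: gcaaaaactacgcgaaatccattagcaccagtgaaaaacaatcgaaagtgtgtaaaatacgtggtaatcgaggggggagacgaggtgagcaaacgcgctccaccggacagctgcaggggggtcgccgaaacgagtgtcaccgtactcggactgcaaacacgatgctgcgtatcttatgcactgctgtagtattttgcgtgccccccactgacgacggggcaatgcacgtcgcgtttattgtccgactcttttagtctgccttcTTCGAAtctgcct
trap-4 candidate: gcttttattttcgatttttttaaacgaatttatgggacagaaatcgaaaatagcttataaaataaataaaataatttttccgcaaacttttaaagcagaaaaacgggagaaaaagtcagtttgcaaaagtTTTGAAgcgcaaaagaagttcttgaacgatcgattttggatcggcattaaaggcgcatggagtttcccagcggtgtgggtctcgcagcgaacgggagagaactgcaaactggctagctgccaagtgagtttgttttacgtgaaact

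The gene for the gamma subunit, sec-61.G, had the strongest site. The gene spans 10896658 to 10897143 on the minus strand of chromosome V, and the summit was in intergenic sequence 237 bp upstream of its start. Its pooled signal value was 733, while replicate 1 gave 479 and replicate 2 gave 245. These are the authors' own values for each peak, on a scale that is not given, so ranks are used to compare lists: the site ranked 8 among nuclear candidates in each of these 3 lists. It was the strongest of the 324 reproducible peaks on chromosome V.

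The summit stood at the same place in both replicates, 1 bp from the pooled summit in replicate 1 and 0 bp in replicate 2. Its width of 264 bp was below the 276 bp that 75.1% of the reproducible nuclear peaks have, so most widths are no measure of a bound site. No other protein-coding gene started within 500 bp; the nearest others were F32D8.13, 837 bp away, and F32D8.7, 1055 bp away. A weaker pooled candidate of 32.0 lay 424 bp inside the start of sec-61.G, past its coding part, and the replicate 1 list had one of 27.8 at 439 bp. In replicate 2 the nearest candidate on that side of the start was 600 bp away, with a signal of 6.47.

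The pore subunit gene, sec-61.A, had a modest peak that lay inside the gene. The gene spans 14822540 to 14825264 on chromosome IV, on the minus strand, and has 2 annotated protein-coding starts. The summit was 69 bp downstream of the outer start, in the 5′ untranslated part of its first exon, and sec-61.A was the only one of the 6 bound genes with a summit downstream of its start. The pooled signal value was 64.0, against 47.0 in replicate 1 and 20.6 in replicate 2, and the ranks were 1445, 1228 and 2040. The site was thus weaker than the median reproducible nuclear peak, which had a signal of 80.2.

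The ribosomal protein gene rps-18 starts 415 bp from sec-61.A in the opposite direction, and the summit was 484 bp upstream of it. By the 500 bp limit the same peak therefore also counted for rps-18, though it was closer to sec-61.A. The part of the peak outside the untranslated exon, chrIV:14825265-14825332 on the minus strand, is printed here because it is the stretch just before the annotated start; it had no match to the strings. The CHR match of the peak lay on the other side of the start, 34 bp from the summit.
sec-61.A upstream part: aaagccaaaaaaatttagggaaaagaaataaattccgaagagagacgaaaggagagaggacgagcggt

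The beta subunit gene sec-61.B and the TRAP gamma gene trap-3 shared 1 peak between their starts, which are 770 bp apart on chromosome IV. sec-61.B spans 2388185 to 2388675 on the minus strand, and trap-3 spans 2389445 to 2390259 on the plus strand. The pooled signal value was 127.2, with 81.8 in replicate 1 and 43.5 in replicate 2, and the ranks were 558, 558 and 645. This site was the second strongest at the listed genes and stood above 74.4% of the reproducible nuclear peaks. One peak cannot be assigned to either gene, so the count of 6 bound genes holds 5 separate sites.

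The shared summit was nearer to trap-3, 288 bp from its start, than to sec-61.B, 482 bp from its start. The sec-61.B call is close to the 500 bp limit: the summit was 506 bp away in replicate 1 and 494 bp away in replicate 2. The annotation also places a noncoding RNA gene, Y38F2AR.17, over the summit. Whether reads at this site stem from a factor bound for one gene or the other was not tested.

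The TRAP alpha gene trap-1 had the weakest of the 5 peaks. It spans 2928395 to 2929628 on the plus strand of chromosome I, and the summit was 174 bp upstream of the start, in intergenic sequence. The pooled signal value was 55.8, that of replicate 1 was 42.2 and that of replicate 2 was 18.2, and the ranks were 1727, 1400 and 2495. Its replicate 2 rank was beyond the 2179 reproducible nuclear peaks of the pooled list, so in replicate 2 alone the gene would not count as bound. The summit of replicate 2 was 73 bp from the pooled one, the widest shift at the 5 peaks, against 3 bp in replicate 1.

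The TRAP beta gene trap-2 is X-linked, and X-linked genes were rarely bound, at 2.12% of 2731 genes. The gene spans 767023 to 768069 on the minus strand, and the summit was 199 bp upstream of the start. The pooled signal value was 77.8, that of replicate 1 was 48.3 and that of replicate 2 was 29.9. The ranks were 1132, 1187 and 1168, and the summits were within 4 bp of each other across the lists. On X, trap-2 ranked 103 of 244 reproducible peaks.

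The trap-2 peak also stood 328 bp upstream of ile-2, which starts 527 bp from trap-2 in the opposite direction. RefSeq describes the ile-2 product as a protein with an L-type lectin domain, a kind known from cargo receptors between the ER and the Golgi. Of the 5 peaks, 3 served more than 1 start, where 29.6% of the 1386 reproducible peaks near a start did.

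The TRAP delta gene trap-4 had no reproducible peak. It spans 11920735 to 11921586 on chromosome III, on the plus strand, and its highest pooled candidate, 334 bp upstream of the start, had a signal value of 23.9. Replicate 1 gave 10.3 and replicate 2 gave 14.5, which ranked 16000 and 3827, and the pooled candidate ranked 5998. The lowest reproducible nuclear peak had 45.6 and the highest candidate left out also had 45.6 at this rounding, so trap-4 lay well below the limit and trap-1, at 55.8, was the member just above it. The candidate was nearer to ccf-1, which encodes a deadenylase subunit of the CCR4-NOT complex, with 164 bp to its start.

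**Figure D1:**
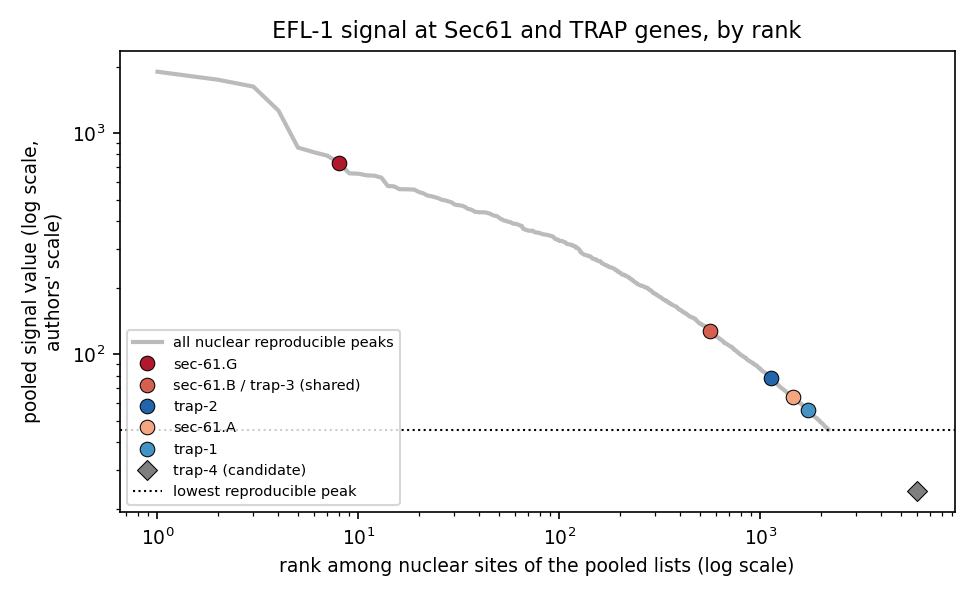
Pooled signal value (y axis, log scale, the authors' scale) against rank among nuclear sites (x axis, log scale) for the 2179 reproducible nuclear peaks (grey line), with the sites of the listed genes as circles, the trap-4 candidate as a diamond and the lowest reproducible signal as a dotted line. The sec-61.G site stands at rank 8, the other 4 peaks between ranks 558 and 1727, and the trap-4 candidate lies under the dotted line.

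The order of the 6 sites by signal was the same in the pooled list and in each replicate: sec-61.G, the shared sec-61.B and trap-3 site, trap-2, sec-61.A, trap-1 and the trap-4 candidate. The pool is made from both replicates and is no separate measurement. To set the replicates on 1 scale, signals were taken as log2 and centred on the median of the 2147 reproducible peaks with a match in both. On this scale sec-61.G was at 3.10 ± 0.18 (SD, n = 2), the shared site at 0.57 ± 0.14, trap-2 at -0.08 ± 0.02, sec-61.A at -0.37 ± 0.34, trap-1 at -0.53 ± 0.35 and trap-4 at -1.71 ± 0.85.

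Neighbours in this order did not all differ beyond their spread. The gap in centred log2 signal from sec-61.G to the shared site was 2.52 ± 0.04 (SD, n = 2), and from there to trap-2 it was 0.65 ± 0.16. From trap-2 to sec-61.A the gap was 0.29 ± 0.36, less than its own SD. It was 0.04 in replicate 1 and 0.54 in replicate 2, and the values of these sites did not overlap between replicates. The values of sec-61.A and trap-1 overlapped between replicates, with a gap of 0.17 ± 0.02 within each. From trap-1 to trap-4 the gap was 1.18 ± 1.20, again less than its SD, since trap-4 stood far lower in replicate 1 than in replicate 2. The values of trap-1 and trap-4 did not overlap either.

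Raw signal was higher in replicate 1 at the 5 peaks, by 1.61-fold at trap-2 to 2.32-fold at trap-1. Over all 2147 matched reproducible peaks the median was 1.70-fold, with quartiles of 1.29 and 2.30, so the ratios at the listed genes were of the common size, save that trap-1 was just above the upper quartile. The trap-4 candidate went the other way, with a ratio of 0.715.

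**Figure D2:**
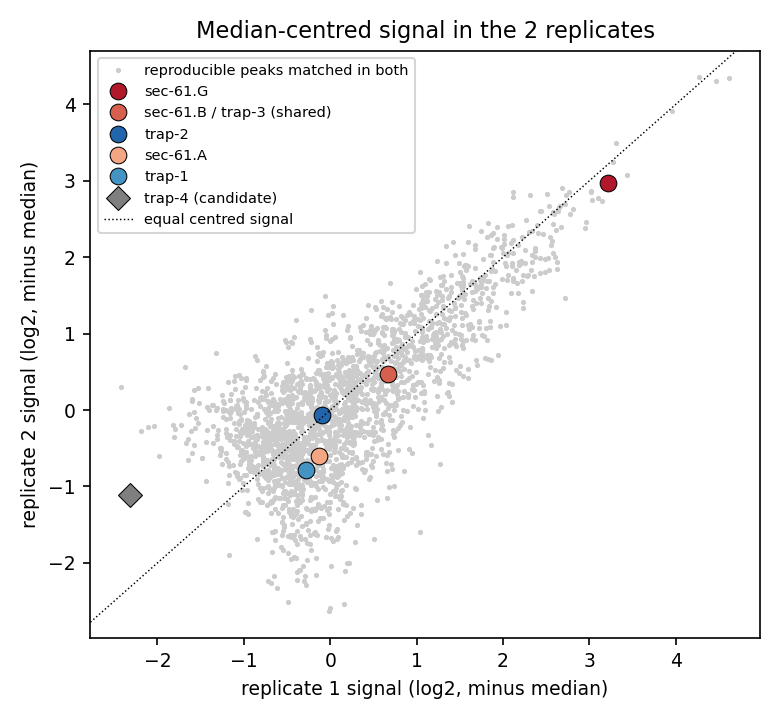
Signal in replicate 1 (x axis) and replicate 2 (y axis), each as log2 minus the median over matched reproducible peaks, for those peaks (grey dots) and the 6 sites of the listed genes (circles, and a diamond for the trap-4 candidate); the dotted line marks equal values. The sec-61.G site lies at 3.22 and 2.97, and the trap-4 candidate at -2.31 and -1.11.

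By peak, with the nearest start, the 5 summits lay at a median of -199 bp, negative meaning upstream, where all reproducible peaks near a start had a median of -154 bp and 88.5% of them were upstream. By gene, with the shared peak counted for both genes, the median was -218 bp. The distances fell into 3 genes within 200 bp, sec-61.A, trap-1 and trap-2, and 3 beyond, sec-61.G, trap-3 and sec-61.B. With 200 bp as the limit, 3 of the 7 genes were bound, against 4.73% of all genes, and the strongest site, at sec-61.G, was not among them. The trap-2 summit, at 199 bp, lay just inside that limit.

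**Figure D3:**
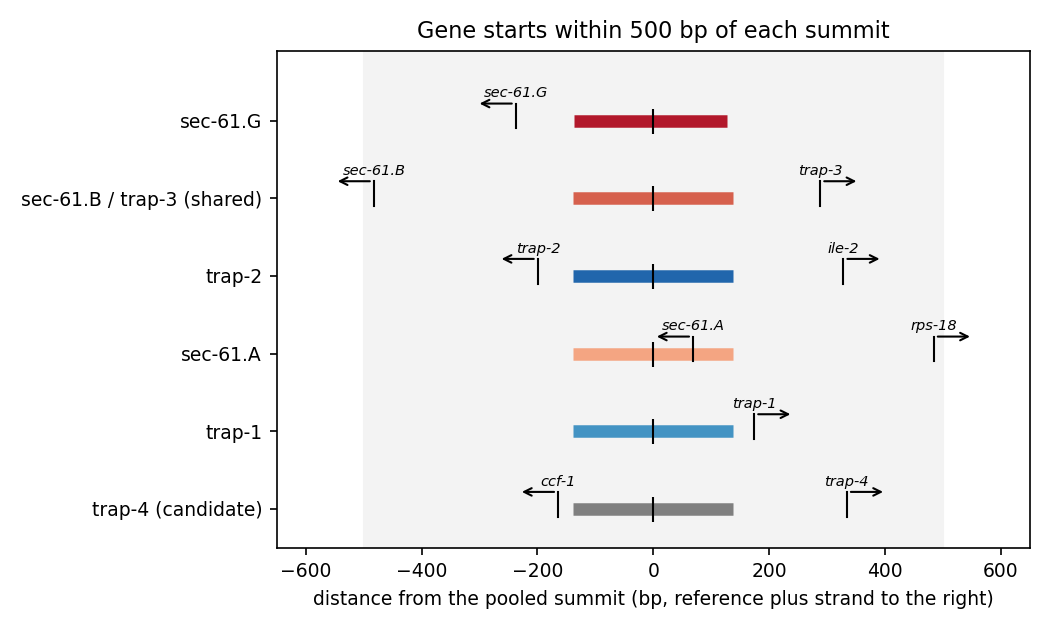
Gene starts (arrows, pointing in the direction of transcription) within 500 bp of each pooled summit, in bp from the summit along the reference plus strand (x axis); thick bars are the peaks or the candidate, and the grey field spans 500 bp to each side. The shared peak lies between sec-61.B and trap-3, the trap-2 peak between trap-2 and ile-2, and the sec-61.A peak covers the sec-61.A start.

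The strings searched were counted at the 5 peaks, beside their shares over all reproducible nuclear peaks. Within 100 bp of the summit, TTTNNCGC was at 0 of the 5 peaks and at 17.2% of the 2179 reproducible nuclear peaks, and TTNNCGC was at 1, that of sec-61.G, and at 30.7%. CHR strings stood at 2 of the 5, sec-61.A and sec-61.G, and at 56.4% of all peaks. CGCGCG and TGACGTG were at 0 of the 5 and at 14.1% and 2.29% of all peaks. Each TTTNNCGC match is also a TTNNCGC match. No difference was tested over 5 peaks, and a string that is missing says only that these letters are not in the window.

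A CHR string and a TTNNCGC string side by side or overlapping, as at sec-61.G, were found in 38 of the 2179 reproducible peaks (1.74%), strings within 20 bp of each other in 244 (11.2%), and both strings anywhere within 100 bp of the summit in 425 (19.5%). The arrangement was defined after the sec-61.G sequence had been seen. At trap-1, within the same distance, there was no match to any string.

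The windows of the listed genes were often rich in G and C. Within 100 bp of the summit, GC content was 58.2% at the shared sec-61.B and trap-3 peak, 55.7% at trap-2, 49.8% at trap-1, 49.3% at sec-61.G and 41.3% at sec-61.A. The median over all reproducible nuclear peaks was 40.3%, with quartiles of 35.8% and 45.3%, so 4 of the 5 peaks lay above the upper quartile. That background also holds peaks more than 500 bp from any start, and GC content of peaks near a start alone is not given here. The shared peak exceeded 98.9% of all peaks in GC content and trap-2 97.8%. CG steps numbered 20 at trap-2, 18 at the shared peak, 16 at trap-1, 14 at sec-61.A and 13 at sec-61.G, against a median of 11. The part of base composition in the signal was not tested.

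The genes whose strongest nearby peak was most like that of sec-61.G, by Euclidean distance over the log2 signals of the pool, replicate 1 and replicate 2, were Y53F4B.11 and Y53F4B.9 with 1 shared peak at a distance of 0.28, T23F6.3 and rbd-1 with another at 0.29, and fbxl-2 at 0.29. Their pooled signals were 655, 819 and 658, with ranks of 10, 6 and 9. None of them is another gene of the translocon.

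One more gene, K08F4.3, has a product that RefSeq names translocon-associated protein subunit beta, like trap-2, though it is not among the 7. It lies on chromosome IV from 10129257 to 10130244 on the plus strand and had a reproducible peak 92 bp upstream of its start. Its pooled signal was 175.3, with 133.9 in replicate 1 and 39.98 in replicate 2, and ranks of 337, 252 and 753, each closer to the top than those of trap-2. The peak was shared with gtbp-1 and held TTTNNCGC, CHR and CGCGCG matches within 100 bp of the summit. This gene was looked at after the values of the others had been seen.

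Genes at the steps before and after the translocon were bound unevenly, and none of their lists was tested. Of 53 genes in 8 lists, 15 had a reproducible peak, with a median signal of 80.1, where bound genes in general had a median of 92.8 and 8.86% of genes were bound. The signal recognition particle (SRP) brings ribosomes to the channel, and 3 of 6 genes of the particle and its receptor had a peak. They were F21D5.7 with 115.7, F38A1.8 with 107.2 and F37F2.2 with 87.5. F21D5.7 is the gene of the GTPase subunit of the particle, and F37F2.2 is the putative gene of another SRP subunit. RefSeq describes the product of F38A1.8 as an SRP54-type GTPase. At 200 bp the count was 1, where 4.73% of all genes were bound. It was 3 without replicate 1 and 4 without replicate 2. R186.3, which may encode a receptor subunit, was not counted.

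The next list held the channel partners sec-62 (C18E9.2), dnj-29 and tram-1, and asna-1, which belongs to a separate targeting route. These 4 genes had 0 reproducible peaks, which is near the background for so short a list at 8.86% of all genes. Their highest pooled candidate was 31.1, at dnj-29. Signal peptidase, which trims signal sequences, had 1 of 4, spcs-2 with 203.8. Oligosaccharyltransferase, which attaches sugar chains as proteins emerge, had 2 of 5, dad-1 with 117.1 and ribo-1 with 52.5; it had 1 without replicate 2 and 0 at 200 bp. The spcs-2 peak was shared with mrg-1, the dad-1 peak with tre-1 and the ribo-1 peak with the proteasome gene rpn-1.

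Further along the pathway, the COPII coat forms vesicles that leave the ER. Its list also held genes that act in coat assembly without being coat subunits, such as sec-12. Of these 8 genes 4 were bound, with 117.8 at sec-24.1, 103.4 at sec-24.2, shared with ccr-4, and 80.1 at sec-12. The count was 3 without replicate 1, 5 without replicate 2 and 3 at 200 bp. ER chaperones had 4 of 12, with 2 of 12 without replicate 1 and 3 of 12 without replicate 2. The 4 signals were under the median reproducible peak, among them 68.5 at the BiP gene hsp-3, 65.0 at the calreticulin gene crt-1 and 50.95 at the GRP94 gene enpl-1, shared with imp-2. The enpl-1 site ranked 1687 in replicate 1 but only 8826 in replicate 2. The ER membrane complex, which inserts membrane proteins, had 1 of 5, emc-6 with 70.4, at a peak shared with mrpl-1 and mrps-24, and 2 without replicate 2. ER-associated degradation had 0 of 9, also near the background. No peak of these lists reached the signal of sec-61.G, but spcs-2, with 203.8, stood above every other peak of the listed genes.

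**Figure D4:**
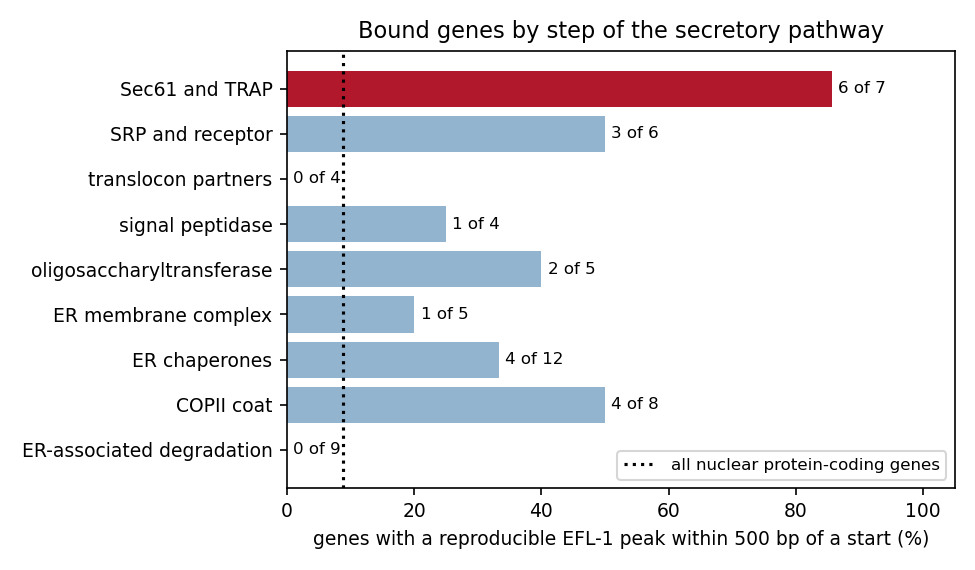
Share of genes (x axis, percent) with a reproducible EFL-1 peak within 500 bp of a start, for the listed genes (red) and 8 related lists (blue), with the count beside each bar and a dotted line at 8.86%, the share of all nuclear protein-coding genes. The listed genes were chosen on their peak signal, so their count of 6 of 7 cannot be ranked against the other bars. The related lists were drawn up with earlier results known, and ER-associated degradation had 0 of 9.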

How the data were processed

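The samples were 2 replicates in 1 group. Per the descriptions deposited with the files, peak candidates were listed for each replicate and for the pool, as input for IDR, and 1 optimal list was thresholded from them. Signal values were deposited by the authors with each peak. Their scale, the aligner, the peak caller and the handling of multiply mapped reads were not given in the sources used here. Lists on ce11 were used, and 28 mitochondrial peaks of the 2207 were left out. All 2207 were the strongest of the 30000 pooled candidates.

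Gene starts came from Ensembl release 115 models of WBcel235. A site was matched in a replicate by an overlap of at least 1 bp, taking the highest signal. The listed genes and related lists were chosen with earlier results of these data known. Named genes were the 7 listed ones, genes sharing their sites, up to 3 bound genes per list and the 5 most like sec-61.G; K08F4.3, the neighbours of sec-61.G, dnj-29 and genes sharing peaks in related lists were added. SRP genes named by RefSeq product were added to their list, R186.3, which may be an SRP receptor gene but has another product name in RefSeq, was removed, and a sequence name that belonged to let-49 was dropped. One gene of that list is not reported here. The assignment of peaks to genes and the string search were checked on simulated data. No p-values were computed. Python 3.11.15, numpy 2.4.6, pandas 2.3.3 and matplotlib 3.10.9 were used.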

Additional observations from a re-analysis of the deposited data

How the results depend on the processing

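The count of 6 bound genes was 3 at a distance of 200 bp (sec-61.A, trap-1 and trap-2; 4.73% of all genes) and 3 with the stronger 50% of the peaks (sec-61.B, sec-61.G and trap-3; 5.31%), and sec-61.B was lost with the nearest start alone, which left 5 (6.84%). With the strongest 2179 nuclear candidates of a single replicate it was 5 without replicate 1, where trap-1 was lost (8.27%), and 5 without replicate 2, where sec-61.B was lost (8.94%); at 1000 bp, a choice made after seeing the data, these were 5 (10.6%) and 6 (11.4%). The median rank of the 5 peaks was 1132 in the pool and 1168 to 1187 in single replicates. All 6 sites had a summit within 100 bp in both replicates, but 5 of them came from the authors' reproducible list, so this is a description. The short E2F string stayed at 1 of 5 peaks with 50 and 250 bp to either side. Its shares over all peaks were 25.4% and 37.1%. CHR strings stood at 2 of 5 peaks at both 50 and 100 bp, against 35.0% and 56.4% of all peaks. At 250 bp they rose to 4, where 86.1% of all peaks held one. Of the related genes, 15 were bound in the pool, 8 at 200 bp and 12 to 16 with 1 replicate left out. Against peaks near a start alone, the shares with TTNNCGC and CHR strings within 100 bp of the summit were 34.7% and 61.8%. No paired analysis was possible because there is 1 group and no contrast. The unknown depth and the lack of read counts limit what the weaker sites, such as trap-4, can show.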
